A study of Mus musculus with 8 samples.

Results

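Transcripts of 10 genes that mark injured kidney tubules or belong to the tubule's simple epithelial keratins were followed on 8 microarrays of adult mouse kidney. The genes were Havcr1, Lcn2, Cp, Krt7, Krt8, Krt18, Krt19, Krt20, Sox9 and Cd44, and every probe carrying one of these symbols was taken, 23 of the 45281 probes on the array. Of these, 13 probes, at least 1 for each of the 10 genes, were detected on 2 or more arrays and entered the fit together with the rest of the 23841 probes that did so (12476 genes). Each array held total RNA of kidney cells selected on magnetic columns for CD31, a surface protein of endothelium that platelets and some leukocytes also carry. The 4 mutant samples, 2 from females (numbers 1 and 3) and 2 from males (numbers 2 and 4), were homozygous for the gene-trap allele KST264 of Crim1 (Crim1KST264/KST264), and the 4 wildtype samples were divided in the same way. All animals were adult mice of C57B6/CD1 strain. The protein made from Crim1 spans the cell membrane and tethers growth factors at the surface. The design text speaks of 4 pairs of mice without saying that every array came from an animal of its own. The p-values below therefore reflect the spread between samples alone, part of which may be technical. The genes were put together with their mutant and wildtype levels in view, so their genotype differences are given as descriptions. Counts of genotype calls from limma are printed as background, and the tests read for the set are those of the sexes and of the genotype difference between the sexes.

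When tubule cells are damaged they lose polarity, dedifferentiate and spread to close gaps, and in doing so they switch on genes that are nearly silent in the healthy tubule. Havcr1 encodes kidney injury molecule 1, a phosphatidylserine receptor of injured proximal tubule cells, and Lcn2 encodes lipocalin 2, a secreted protein that captures bacterial siderophores and is released by distal nephron cells as well as by neutrophils. Keratins are intermediate filament proteins that pair a type II chain (Krt7, Krt8) with a type I chain (Krt18, Krt19, Krt20). They are held at a steady level in collecting duct and other ducts, and several appear in proximal tubule cells after damage.

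The labels were borne out by the genes they refer to. The tested probes of Crim1 lay between 4.67 and 5.82 (ILMN_2910295) and between 4.56 and 5.85 (ILMN_2525274) on the mutant arrays, and from 6.97 to 7.98 and from 6.90 to 7.64 on the wildtype arrays, in normalized log2 intensity. Xist was 10.52 to 11.07 in the female samples and 4.35 to 4.56 in the male samples. Between 45.1% and 48.7% of the probes were detected on each array, and the median raw intensity ran from 83.2, on mutant male 2, to 98.5. All 10 endothelial marker genes were tested, Erg detected on 5 arrays and the others on all 8. All 10 had a lower mean in the mutants, by a median of 0.62 on the log2 scale. The lowest differences were those of Tie1 (-0.86), Pecam1 (-0.73), which encodes CD31, and Eng (-0.69). Erg (-0.13), Flt1 (-0.50) and Emcn (-0.57) differed least. None of the 10 was called for genotype in limma's fit, where 9 of the 23841 tested probes were (0.0378%). The summed level of the list, the log2 of its genes' added intensities, overlapped between the genotypes (15.15 to 15.97 in mutants, 15.45 to 16.72 in wildtype). This sum was still lower in the mutant of all 4 number pairs. The median difference of the 10 genes was -0.23 among females and -1.02 among males. None of them was called for the interaction of genotype and sex, where 0 of the 23841 tested probes were called. The 21 tested genes of intact tubule, most of them proximal, were also present in the CD31-selected samples, Slc7a13 detected on 5 arrays and the others on all 8. Their summed log2 intensity was 18.19 to 18.36 across the 8 arrays. In such bulk samples fewer cells of a type and less RNA per cell cannot be told apart, and the part of sorting purity in the values below was not tested.

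The largest differences between mutants and wildtype in the set were those of Havcr1 and Lcn2. Havcr1 (ILMN_2604307, NM_134248) had a normalized log2 intensity of 8.13 in mutant female 1, 9.22 in mutant female 3, 8.07 in mutant male 2 and 9.15 in mutant male 4. In wildtype it stood at 6.03 in female 1, 5.18 in female 3, 6.10 in male 2 and 5.74 in male 4. Every mutant array lay above every wildtype array. Havcr1 was detected on all 4 mutant arrays and on 3 of the 4 wildtype arrays, with a detection p of 0.0707 on the array of wildtype female 3. The raw intensities were 332, 718, 264 and 654 in mutants in the same order, and 127, 96.5, 140 and 114 in wildtype, so the wildtype signals sat close to the array's background. The means were 8.64 ± 0.63 in mutants and 5.76 ± 0.42 in wildtype (SD, n = 4 each), a difference of 2.88 (SE 0.35), or 7.38-fold. Between samples of the same number the mutant exceeded the wildtype by 2.10 for number 1, 1.97 for number 2, 4.04 for number 3 and 3.42 for number 4. In the authors' deposited table of processed values, where dim probes are compressed towards a floor of 7.15, the difference of Havcr1 was 1.23.

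Lcn2 (ILMN_2712075, NM_008491) was well above background everywhere and was detected on all 8 arrays. Its log2 intensity was 11.54 in mutant female 1, 9.72 in mutant female 3, 10.54 in mutant male 2 and 9.74 in mutant male 4, against 8.87, 8.27, 8.83 and 7.91 in the wildtype samples in the same order. The lowest mutant thus exceeded the highest wildtype. In raw intensity the mutants gave 3028, 994, 1285 and 948 and the wildtype samples 552, 375, 563 and 285. The means of log2 intensity were 10.39 ± 0.86 and 8.47 ± 0.46 (SD, n = 4 each), which differed by 1.92 (SE 0.44), or 3.77-fold. The same-number differences were 2.67, 1.71, 1.45 and 1.83 for numbers 1 to 4. The 2 genes did not follow one order among the mutants: Havcr1 was highest in numbers 3 and 4, where Lcn2 was lowest, and Lcn2 was highest in number 1. Leaving out 1 array at a time moved the difference of Havcr1 between 2.61 and 3.16 and that of Lcn2 between 1.46, without mutant female 1, and 2.37, without mutant female 3.

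Cp encodes ceruloplasmin, a copper-carrying ferroxidase of plasma that the injured kidney also makes, and was read by 4 probes, of which 2 were tested. The brighter of these (ILMN_3083163) gave 9.41, 9.15, 8.82 and 9.005 in mutant female 1, mutant female 3, mutant male 2 and mutant male 4, and 8.07, 8.84, 7.93 and 8.24 in the matching wildtype samples. Wildtype female 3 lay at the level of the lowest mutant, so the groups overlapped on this probe. Its means were 9.09 ± 0.25 and 8.27 ± 0.40 (SD, n = 4 each), which differed by 0.82 (SE 0.19), or 1.77-fold. The second tested probe (ILMN_2520239) lay between 7.72 and 8.02 in mutants and between 7.17 and 7.66 in wildtype, without overlap, and differed by 0.58 (SE 0.14). Both probes were higher in the mutant of all 4 number pairs, by 0.31 to 1.33 on the first and by 0.07 to 0.80 on the second.

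**Figure D1:**
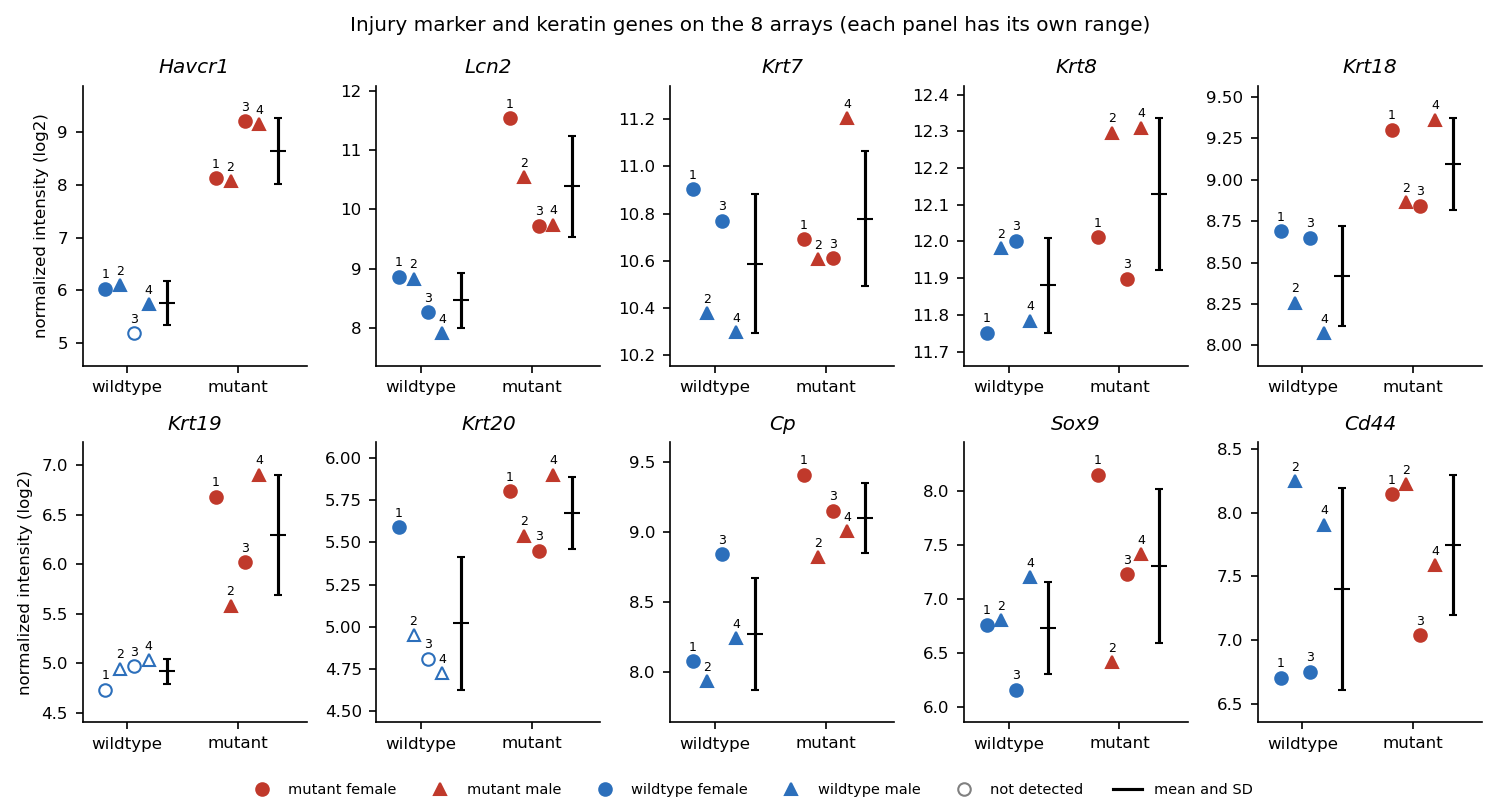
Normalized log2 intensity of the brightest tested probe of each of the 10 genes on the 8 arrays, by genotype, with the sample number beside each point; the black bar is the mean with its SD over 4 arrays, and open symbols mark arrays on which the probe was not detected. Mutant and wildtype points are apart for Havcr1, Lcn2, Krt18 and Krt19 and overlap for the other 6 genes.

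Sequence upstream of the transcription start was available from RefSeq (GRCm38.p6) for 8 of the 10 genes, in 11 windows of 250 bases. It is shown for Havcr1 and Lcn2, which carry the largest differences, and for Krt18, the bright keratin whose genotype groups do not overlap. Each is written 5′ to 3′ on the gene's strand and ends just before the start, with capitals for a match to the NF-kB motif, found 47 bases before the start of Krt18.
Havcr1, the most upstream of 3 annotated starts, chr11:46739973-46740222, plus strand: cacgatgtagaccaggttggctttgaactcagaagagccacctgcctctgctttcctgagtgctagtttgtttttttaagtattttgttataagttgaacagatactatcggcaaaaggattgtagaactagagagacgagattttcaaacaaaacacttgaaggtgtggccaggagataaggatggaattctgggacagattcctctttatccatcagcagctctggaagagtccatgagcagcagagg
Lcn2, chr2:32387740-32387989, minus strand: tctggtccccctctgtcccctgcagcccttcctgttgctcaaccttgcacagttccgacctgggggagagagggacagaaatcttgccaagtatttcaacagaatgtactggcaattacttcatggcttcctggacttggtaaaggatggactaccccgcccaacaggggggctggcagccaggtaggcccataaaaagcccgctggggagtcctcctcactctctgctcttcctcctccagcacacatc
Krt18, chr15:102027966-102028215, plus strand: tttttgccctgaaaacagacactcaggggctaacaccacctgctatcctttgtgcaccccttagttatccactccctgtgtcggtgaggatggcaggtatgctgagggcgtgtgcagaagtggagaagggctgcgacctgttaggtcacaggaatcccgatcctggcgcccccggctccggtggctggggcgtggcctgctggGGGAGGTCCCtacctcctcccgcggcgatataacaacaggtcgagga
Motifs were searched on both strands. They were TATAAA for the TATA box, CCAAT for the CCAAT box, TGANTCA for AP-1, TTCNNNGAA for STAT and the NF-kB motif, and no matches overlap in these 3 windows. No match to any of them was present in the Havcr1 and Lcn2 windows. Elsewhere in the set, Krt20 had a TATA box 29 bases before its start, and 1 window of Cp had an AP-1 match 177 bases before the start. The other window of Cp had a CCAAT box at 118 bases and TATA matches at 27 and 25 bases. These 2 TATA matches overlap, 1 on each strand, in the stretch TTTATAAA. Of 32817 mouse windows of this length, 12.4% held the TATA box, 33.8% the CCAAT box, 6.75% AP-1, 7.01% STAT and 7.25% NF-kB. A match describes letters in the window and nothing was measured of any factor there.

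The type II keratins Krt7 and Krt8, the filament partners present in simple epithelia, were bright in both genotypes and differed little. Krt8 (ILMN_1221157) gave log2 intensities of 12.01, 11.90, 12.30 and 12.31 in mutant female 1, mutant female 3, mutant male 2 and mutant male 4, and of 11.75, 12.00, 11.98 and 11.78 in the matching wildtype samples. The groups overlapped, and the difference of 0.25 (SE 0.11) was negative for number 3 (-0.10) and at most 0.53, for number 4. Krt7 (ILMN_2961152) gave 10.69, 10.61, 10.61 and 11.20 in mutants and 10.90, 10.77, 10.38 and 10.30 in wildtype in the same order. Here only mutant male 4 exceeded all wildtype arrays, and the mutant was the lower of its pair for the females of number 1 (-0.21) and number 3 (-0.16) and the higher for the males of number 2 (0.23) and number 4 (0.90). The mean difference of Krt7 was 0.19 (SE 0.15), and it was 0.04 without mutant male 4 and 0.34 without mutant male 2.

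Among the type I keratins the mutants lay higher, most clearly for Krt18 and Krt19. Krt18 (ILMN_2711267), the usual partner of Krt8, gave 9.30, 8.84, 8.86 and 9.36 in mutant female 1, mutant female 3, mutant male 2 and mutant male 4, against 8.69, 8.65, 8.26 and 8.07 in wildtype. The groups did not overlap, although mutant female 3 and wildtype female 1 lay close together. The means were 9.09 ± 0.28 and 8.42 ± 0.30 (SD, n = 4 each), a difference of 0.68 (SE 0.16), or 1.60-fold, with same-number differences of 0.61, 0.61, 0.19 and 1.29. Krt18 was thus higher in mutants by more than its type II partner Krt8 on these arrays, a difference between the 2 genes that was not tested.

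Krt19 (ILMN_2614462), a keratin of ducts and of dedifferentiating tubule cells, crossed the detection limit between the genotypes. It was detected on all 4 mutant arrays, with log2 intensities of 6.68, 6.02, 5.58 and 6.91 and raw intensities of 158, 134, 94.0 and 186 in mutant female 1, mutant female 3, mutant male 2 and mutant male 4. It was detected on 0 of the 4 wildtype arrays, where detection p-values ran from 0.124 to 0.267, log2 intensities from 4.74 to 5.03 and raw intensities from 82.2 to 93.1. Wildtype therefore gives only a bound. On the background-corrected scale the mean of Krt19 was at least 2.07-fold higher in mutants, computed against the lowest signal among detected probes of each wildtype array. The measured means were 6.30 ± 0.61 and 4.92 ± 0.13 (SD, n = 4 each), the latter a level of background, and the probe entered the fit through the mutant arrays alone. The bound does not carry over to other scales: the log2 difference of this dim probe was 0.68 with no background correction and 0.30 in the authors' deposited table.

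Krt20 (ILMN_2907285), best known from urothelium and gut and seen in proximal tubule cells after injury, was dim on every array, with raw intensities of 82.3 to 124. Its log2 intensity was 5.80, 5.45, 5.54 and 5.90 in mutant female 1, mutant female 3, mutant male 2 and mutant male 4, and 5.59, 4.81, 4.95 and 4.73 in wildtype. It was detected on all 4 mutant arrays but, in wildtype, only in female 1, which lay among the mutants. The other wildtype arrays were at background, and the probe met the detection filter only with the mutant arrays. The difference was 0.65 (SE 0.20), a size that these background levels limit, and it was 0.12 in the authors' deposited table. The 4 same-number differences of 0.21 to 1.17 were all above 0.

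Sox9, a transcription factor that tubule cells express while they regenerate, and Cd44, a hyaluronan receptor of injured tubule cells and of leukocytes, overlapped between the genotypes on every tested probe. Sox9 (ILMN_2778151) gave 8.16, 7.23, 6.42 and 7.42 in mutant female 1, mutant female 3, mutant male 2 and mutant male 4, and 6.77, 6.16, 6.81 and 7.21 in wildtype. Mutant female 1 stood highest and mutant male 2 lay below 3 of the 4 wildtype arrays. The difference was 0.57 (SE 0.30), with same-number differences of 1.39, -0.39, 1.07 and 0.22, and it ranged from 0.32 without mutant male 4 to 0.82 without mutant male 2.

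Cd44 was read by 9 probes, more than any other gene of the set, and only 3 of them were tested. The brightest (ILMN_1223697) gave 8.15, 7.04, 8.23 and 7.59 in mutant female 1, mutant female 3, mutant male 2 and mutant male 4, and 6.70, 6.75, 8.25 and 7.91 in wildtype. On this probe both mutant females lay above both wildtype females, and the males of the genotypes overlapped. Its difference of 0.35 (SE 0.27) came to 0.07 without mutant female 1 and to 0.62 without mutant female 3. A second probe (ILMN_3114585) gave 7.26, 6.33, 7.16 and 6.61 in mutants and 5.53, 5.51, 6.99 and 6.25 in wildtype, with all 4 same-number differences above 0 (0.17 to 1.73) and a mean difference of 0.77 (SE 0.26). The dimmest tested probe of Cd44 (ILMN_2730266) was detected on 2 mutant arrays and 1 wildtype array and differed by 0.11, which turned to -0.01 without mutant male 2. The probes of Cd44 thus differed in size, and the transcripts that each of them reads were not analysed here.

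The other 10 probes of the set were at background. They were 6 probes of Cd44, 2 of Cp, 1 of Krt8 and 1 of Sox9. One probe of Cp was detected on 1 array and the other 9 on none, their raw intensities lay between 56.2 and 98.9, and their mutant minus wildtype differences ran from -0.13 to 0.20.

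Counted over the set, 13 of 13 tested probes had a higher mean in mutants, where 52.5% of all tested probes did. On 5 of the 13 probes, from 4 of the 10 genes read at their brightest probe, plus the second probe of Cp, every mutant array exceeded every wildtype array, against 1.51% of all tested probes. On 8 of the 13 probes, and for 6 of the 10 genes, all 4 same-number differences were above 0, against 7.71% of all tested probes. On none was every mutant array below every wildtype array, against 1.37%. Krt19 is in these counts although its wildtype level is only a bound, and over the 12 probes detected on a wildtype array 4 had no overlap and 7 had all 4 differences above 0. These 12 still hold Krt20, which is among the 7, and the dimmest tested Cd44 probe. Each of them was detected on 1 wildtype array and met the filter only with its mutant arrays. The median difference of the 10 genes was 0.66, and that of all 12476 tested genes 0.02. In limma's fit 0 of the 13 probes had a Benjamini-Hochberg adjusted p under 0.05 for genotype, where 0.0378% of all tested probes, 9 of 23841, did. With the sample number as a replicate block that number was 0 of 23841, and it was 0 or 1 when any 1 array was left out. Because the set was chosen on this contrast, nothing is read from these counts.

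**Figure D2:**
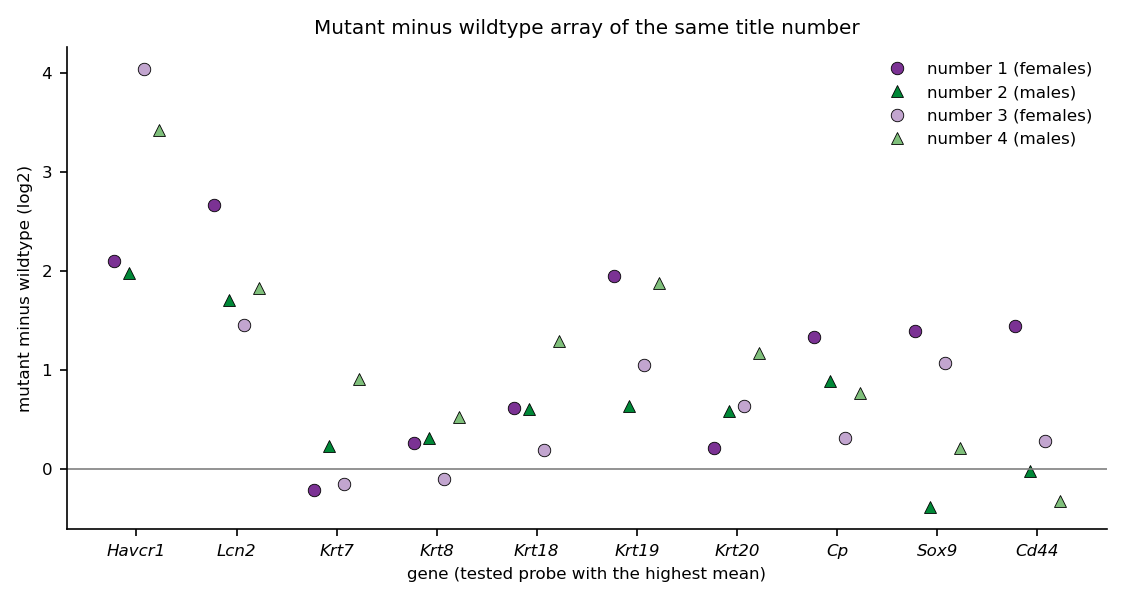
Mutant minus wildtype difference of normalized log2 intensity for each of the 4 sample numbers, for the brightest tested probe of each of the 10 genes. All 4 differences are above 0 for Havcr1 and Lcn2, and Krt7 has 2 of 4 above 0.

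The genes whose profile lay nearest to Havcr1 and Lcn2 were ranked by the mean absolute difference of log2 intensity over the 8 arrays, after each probe was centred on its own mean. Nearest to Havcr1 were Aoc1 (0.59), which encodes a diamine oxidase, Ubd (0.66), a ubiquitin-like modifier, Atp12a (0.71), a proton-potassium pump, Serpina10 (0.75), a serine protease inhibitor, and Igfbp2 (0.75), an insulin-like growth factor binding protein. Krt19 ranked at 8 and Lcn2 at 16 in this order. Nearest to Lcn2 were Gabrp (0.35), a GABA receptor subunit, Serpina3n (0.39), an acute-phase protease inhibitor, Mmp23 (0.47), a metalloprotease, Aoc1 (0.47) and Timp1 (0.49), an inhibitor of metalloproteases, while Havcr1 ranked at 1253. Gabrp was highest in mutant female 1 (7.86), as Lcn2 was, and Aoc1 was highest in mutant male 4 (10.22). These measures describe likeness on 8 arrays and share the genotype difference that brought both genes into the set. Igfbp2 (4.48 to 4.62 in wildtype) lay below the lowest signal among detected probes on every wildtype array. So did Atp12a except on wildtype female 1, and Serpina3n except on wildtype male 4. These genes, like Krt19, met the detection filter only with mutant arrays, and their distances rest on background levels in wildtype.

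Other genes of tubule injury differed by less than Havcr1, Lcn2 and Krt19. Of 37 further injury genes, 33 had a probe under their symbol and 29 were tested, with 22 higher and 7 lower in mutants, a median difference of 0.19 and 0 called by limma. No probe carried the symbols Spp1, Clu, Gdf15 or C3. These genes are not covered here, which does not show that the array lacks them, since 10378 probes had no symbol. Timp1 was highest with 1.00. It was the 1 gene of the 29 with every mutant array above every wildtype array, where 1.51% of all tested probes were, and nothing is read from this count. Tnfrsf12a, the receptor of the cytokine TWEAK, differed by 0.52, and Ccl2, a monocyte attractant detected on 3 arrays only, by 0.56. At the low end stood Tgfb1 (-0.50), a cytokine of fibrosis, Icam1 (-0.34), an adhesion molecule of leukocytes and endothelium, and Plaur (-0.29), the urokinase receptor. Of the genes that mark intact tubule, most of them proximal, 10 of 21 were higher and 11 lower in mutants, with a median of -0.01 and 0 called. The extremes were Slc13a3 (0.40), a dicarboxylate transporter, Pck1 (0.39), an enzyme of gluconeogenesis, and Cubn (0.38), an endocytic receptor, against Gatm (-0.41), an enzyme of creatine synthesis, Kap (-0.40), an androgen-regulated kidney protein, and Slc5a2 (-0.27), a glucose transporter.

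The keratins outside the set were mostly silent. Of 44 other keratin genes on the array 13 were tested, 7 higher and 6 lower in mutants, with a median difference of 0.16 and 0 called. Krt23 (0.75) and Krt31 (0.44) did not overlap between the genotypes, and Krt222 differed by 0.30. On 1.51% of all tested probes every mutant array exceeded every wildtype array. Krt31 was detected on 2 arrays only, mutant female 3 and mutant male 4. Its wildtype values were at background, so nothing is read from its lack of overlap. The keratins of basal and stratified epithelium Krt14 (-0.56) and Krt15 (-0.55) stood at the other end with Krt26 (-0.21).

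Other cells in the samples could carry several of these transcripts, and their marker genes were read beside them. For the keratins and Lcn2, the 9 collecting duct genes were all tested, Avpr2 detected on 3 arrays and the others on all 8. All 9 had a higher mean in mutants (median difference 0.18), with 0 called. Aqp2 (0.53), Aqp3 (0.35) and Gata3 (0.31) stood highest, and Fxyd4 (0.09), Scnn1g (0.10) and Avpr2 (0.11) lowest. The summed log2 intensity of the 9 genes was 14.62 to 15.24 in mutants and 14.53 to 14.90 in wildtype. It was highest on mutant female 1 (15.24) and mutant male 4 (15.19), the 2 arrays on which Krt18, Krt19 and Krt20 were highest too. Krt7 and Krt8 were highest on mutant male 4 (11.20 and 12.31). On mutant female 1 Krt7 (10.69) lay below wildtype female 1 (10.90), and Krt8 (12.01) lay below mutant male 2 (12.30). Lcn2 was highest on mutant female 1 (11.54) and stood at 9.74 on mutant male 4. Of 9 urothelial genes 8 were tested, 4 higher and 4 lower, with Krt5 not detected on enough arrays, a median of 0.04 and summed intensities of 9.50 to 9.86 in mutants and 9.14 to 9.62 in wildtype. The urothelial genes Upk3b (0.70), Psca (0.63) and Upk1a (0.24) were at the upper end and Krt15, Upk1b (-0.49) and Upk2 (-0.17) at the lower. For Upk1b every mutant array lay below every wildtype array, as on 1.37% of all tested probes. Of the 3 tested genes of the thin limb and papilla, Cldn4 (0.59), a tight junction protein, was higher in mutants without overlap, as were 1.51% of all tested probes. The urea transporter Slc14a2 (-0.22) and the water channel Aqp1 (-0.06) were lower with overlap. Among the 4 of parietal epithelium Cldn1 (0.55), Ncam1 (0.35) and Pax8 (0.17) were higher in mutants and Pax2 (-0.04) was lower. The part of these cells in the keratin values was not tested.

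For Lcn2, which neutrophils store in their granules, 5 of 8 neutrophil genes were tested, and Ngp, Mpo and Elane were not. Of these 5, 2 were higher and 3 lower in mutants, with a median of -0.31 (S100a8 -0.31, S100a9 -0.42, Retnlg -0.60, Camp 0.11, Ltf 0.02). Their summed intensity spanned 9.04 to 11.24 in mutants and 9.45 to 11.30 in wildtype without following one direction in the number pairs. It was 10.87 in the mutant and 9.45 in the wildtype sample of number 1, the pair with the largest Lcn2 difference, and 9.04 and 11.12 in those of number 4, where Lcn2 was 9.74 and 7.91. S100a8 and S100a9 were higher in mutants among the females (0.58 and 0.54) and lower among the males (-1.19 and -1.38). The part of neutrophils in the Lcn2 values was not tested. For Cd44, 6 of 9 further leukocyte genes were tested, 5 higher and 1 lower in mutants, with a median of 0.14. They were Adgre1 (0.34), Lyz2 (0.33), Cd3e (0.23), Ptprc (0.06), Cd52 (0.02) and Csf1r (-0.02). The leukocyte sum ran from 11.93 to 12.99 in mutants and from 11.38 to 12.88 in wildtype. It was highest on mutant male 2 (12.99) and wildtype male 2 (12.88), the 2 arrays with the highest values of the brightest Cd44 probe. The second Cd44 probe (ILMN_3114585) was highest on mutant female 1 (7.26), where the sum was 12.42. The sum was lowest on wildtype female 3 (11.38), where the brightest probe was 6.75. That probe was lowest on wildtype female 1 (6.70), where the sum was 11.78. The part of leukocytes in the Cd44 values was not tested.

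**Figure D3:**
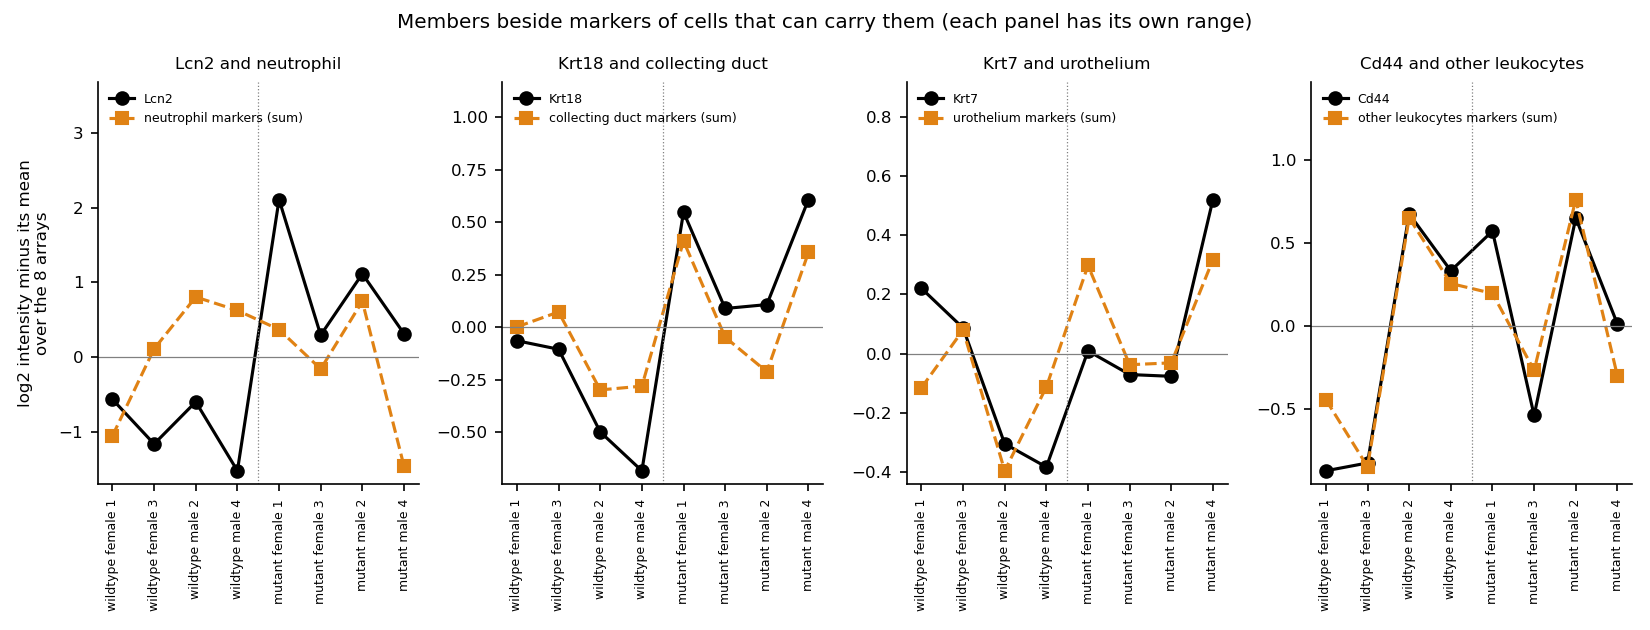
Log2 intensity of Lcn2, Krt18, Krt7 and Cd44 (black) and the summed log2 level of neutrophil, collecting duct, urothelial and other leukocyte marker genes (orange), each minus its own mean over the 8 arrays, with lines only to guide the eye. Lcn2 is above its mean on all 4 mutant arrays, and the neutrophil sum is above its mean on mutant female 1 and mutant male 2 and below it on the other mutants. Cd44 is shown by its brightest probe, and the 2 arrays with the highest values of this probe have the highest leukocyte sum.

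The sexes could be compared with a test, since the choice of genes did not use them. No gene of the set was called between males and females: 0 of 13 probes had an adjusted p under 0.05 in limma's fit, where 3.06% of all tested probes did (730 of 23841, 314 higher in males and 416 in females, and 222 without wildtype female 1). At an unadjusted p under 0.05 there was 1 of the 13, against 4800 of the 23841. This was the brightest probe of Cd44 (ILMN_1223697), whose mean was 7.99 in males and 7.16 in females, a difference of 0.83 (SE 0.27, 95% interval 0.20 to 1.46, adjusted p = 0.148, limma). The second probe of Cd44 differed by 0.59 in the same direction (adjusted p = 0.266, limma). Of the 6 tested leukocyte genes 1 was called for sex, Ptprc, which encodes CD45 and was detected on 4 arrays. Ptprc was 0.73 higher in males (adjusted p = 0.0439, limma). Havcr1 was 0.13 higher in males (interval -0.70 to 0.95, adjusted p = 0.882, limma), and Lcn2 -0.34 (interval -1.37 to 0.69, adjusted p = 0.720, limma). A sex difference within these intervals was not detectable with 8 arrays. The median over the set was -0.12, and over all genes -0.02. Of the further injury genes 3 of 29 were called for sex, Tnfrsf12a (0.71, adjusted p = 0.0197) and Tgfb1 (0.79, adjusted p = 0.0475) higher in males and Cdh6 (-1.03, adjusted p = 0.0194), a cadherin of the developing proximal tubule, higher in females.

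Whether the genotype difference itself differed between males and females was tested as an interaction. Havcr1 had a genotype difference of 3.07 among females and one of 2.70 among males, and the interaction of -0.37 had an interval of -2.03 to 1.28 (adjusted p = 0.957, limma). For Lcn2 the interaction was -0.29, with an interval of -2.35 to 1.77 (adjusted p = 0.973, limma). None of the 13 probes was called, and limma called 0% of the 23841 tested probes, 1661 of which had an unadjusted p under 0.05. Among the 13 there were 2 with an unadjusted p under 0.05. Krt7 differed by -0.18 in females and 0.57 in males (interaction 0.75, interval 0.04 to 1.46, adjusted p = 0.706, limma), and the dimmest tested probe of Cd44 (ILMN_2730266) had an interaction of 0.82 (adjusted p = 0.704, limma). Sox9 ran the other way, with 1.23 in females and -0.09 in males (adjusted p = 0.739, limma), as did the brightest probe of Cd44, with 0.86 and -0.17 (adjusted p = 0.761, limma). With 2 arrays for each genotype and sex, none of these differences between the sexes exceeded the spread between arrays after adjustment.

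**Figure D4:**
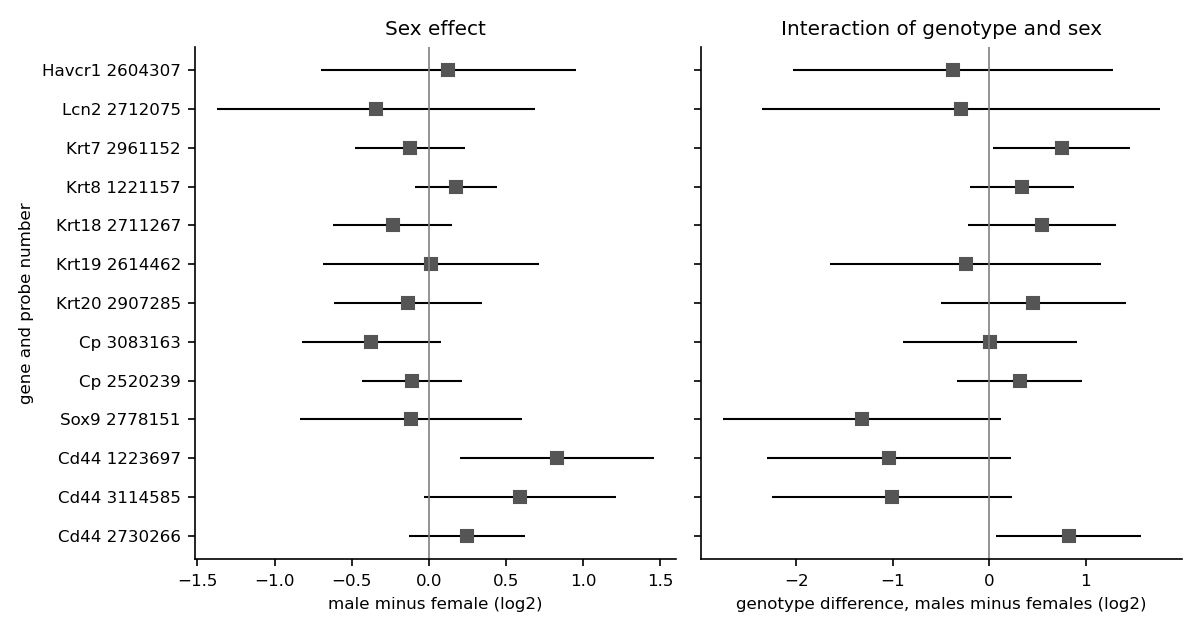
Male minus female difference and the interaction of genotype and sex (mutant minus wildtype in males minus that in females) of normalized log2 intensity for the 13 tested probes, with 95% intervals from limma's fit. The brightest Cd44 probe for sex, and Krt7 and the dimmest Cd44 probe for the interaction, have intervals that do not hold 0, and no probe passes the adjusted threshold.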

How the data were processed

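Total RNA of CD31-selected kidney cells was labelled with biotin and hybridised to Illumina 1-colour BeadChips, per the labels' protocols, 1 array for each of 8 samples. The deposited table holds a raw intensity and a detection p-value per probe, per the file headers, and shows no normalization. The deposited processed values are log2 values of the authors with a floor at 7.15 and medians of 7.46 to 7.47. Centred on each probe's mean, they followed the raw log2 signals of their own array (correlation at least 0.977, at most 0.443 with another array, over probes with a mean signal over 200). A correlation does not measure the size of differences, which was smaller in these values for dim probes such as Krt19. The sources used here do not give the steps behind them. There were 0 columns without a sample. The number of arrays limits the precision.

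Raw intensities were corrected with normexp through the detection p-values (offset 16), then quantile normalized and log2 transformed (neqc, limma 3.58.1, R 4.3.3). The fit took probes detected (p under 0.05) on 2 or more of the 8 arrays, with 4 group means (lmFit and eBayes, residual df 4), and p-values were adjusted by Benjamini-Hochberg over 23841 probes. SE are those of the fit. Figures were drawn with matplotlib 3.10.9 in Python 3.11.15. The fit was tested on simulated data. Probes took their symbols from the platform annotation (34885 with 1 symbol, 18 with several, 10378 with none), 34807 of them updated by Entrez ID to the names of GRCm38.p6.

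The genes of the set, the further lists and the tests were chosen with earlier results of these data known. The named genes are all members with every probe, up to 3 genes with the highest and lowest genotype difference of each list (by the brightest tested probe), the 5 nearest profiles of Havcr1 and Lcn2, and Crim1 and sex-linked genes as checks. Samples of the same number deviated together from their group means (correlation 0.100 for numbers 1 and 3 and 0.269 for numbers 2 and 4), which was taken as a pairing, with the number coming from the titles. With 2 arrays in a group, numbers 1 and 3 share 1 value by construction, as do 2 and 4. The main fit had no replicate block, so its SE, intervals and p-values did not use the pairing. Alternatives were median scaling, no background correction, the authors' values, other filters on dim probes, a fixed or random replicate block, no sex term, a detection p under 0.01 and leaving out each array.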

Additional observations from a re-analysis of the deposited data

Results flagged for a closer look

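In groups of 4 arrays, a single array stood far from the other 3 in 2 of 26 checks of the tested probes, where chance alone flags about 1 in 20. Krt7 was 11.20 on mutant male 4, while the other mutants lay at 10.61 to 10.69, and that array also held the highest Krt18, Krt19 and Krt20 of the mutants and a collecting duct sum of 15.19. The second Cp probe (ILMN_2520239) was 7.66 in wildtype female 3, while the other wildtype samples lay at 7.17 to 7.24, and the brighter Cp probe was also highest there among the wildtype samples, at 8.84.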

How the results depend on the processing

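The members' mutant minus wildtype differences kept their sign in 206 of 207 recomputed values, and the exception was the dim Cd44 probe. The number of probes called for genotype, 9, was 0 with the authors' values, 1 with no filter on dim probes, 3 with no sex term and 0 to 1 when 1 array was left out. With the replicate block it was 0, and with a random replicate block (correlation 0.0842) it was 9. The block changed no call of a member. The sex count, 730, was 1120 with the authors' values and 222 (without wildtype female 1) to 743 (without mutant male 2) when 1 array was left out, with no value under the fixed block because numbers lie within a sex. The interaction count was 0 in all of these. No member was called for sex (lowest adjusted p 0.0767, limma) or interaction (lowest 0.336, limma) under the settings refitted for the members. A detection p under 0.01 was applied to the detection calls only, which went from 92 to 86 of 184, and the fit was not redone at this limit. Krt19 lost its call on mutant male 2 (detection p 0.0122), and Krt20 on mutant male 2 (0.0210) and mutant female 3 (0.0104). The dimmest tested Cd44 probe kept its call on mutant male 2 alone.

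The interaction of the brighter Cp probe, 0.01, turned to -0.039 with median scaling, -0.040 with the authors' values and -0.014 with no background correction. Leaving out 1 array let small sex differences change sign, with ranges of -0.14 to 0.40 for Havcr1, -0.79 to 0.11 for Lcn2, -0.27 to 0.027 for Krt7, -0.32 to 0.35 for Krt19, -0.33 to 0.060 for Krt20 and -0.37 to 0.13 for Sox9. The interaction ranged from -0.92 to 0.17 for Havcr1, -1.20 to 0.61 for Lcn2, -0.91 to 0.42 for Krt19 and -0.38 to 0.39 for Cp. The cause of these changes was not tested. With no background correction the genotype difference of Havcr1 was 2.00 and that of Krt19 0.68. Signals of Krt19, Krt20 and wildtype Havcr1 close to background limit the size of their differences.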
